A study of Homo sapiens with 8 samples.

Results

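The response of DND-41 cells to the degrader ACBI-1 was read from 4 RNA-seq libraries, out of 8 in the series. DND-41 is an established human T-cell acute lymphoblastic leukaemia line. Cells had been exposed for 3 h to 100 nM ACBI-1 or to DMSO, the solvent, with 2 libraries in each group. The other 4 libraries are the same treatments in MOLT-4, a second leukaemia line of T-cell origin, and are used here only to ask where the DND-41 response differs. All groups grew in RPMI-1640 medium with 10% FBS, and total RNA was read as strand-specific pairs of 100-bp reads. No genetic change was introduced into either line according to the labels. Of 63677 genes in the count table, the 14019 that passed a filter on low counts in DND-41 make up the response described here.

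ACBI-1 is a bifunctional molecule that joins the VHL ubiquitin ligase to SMARCA2, SMARCA4 and PBRM1, so that these proteins are degraded. SMARCA2 and SMARCA4 are the alternative motors of the SWI/SNF (BAF) complexes, which slide and evict nucleosomes and keep enhancers open, and PBRM1 belongs to the PBAF form. T-cell leukaemias depend on enhancers bound by factors such as NOTCH1, MYB, RUNX1 and GATA3, and DND-41 also carries an activated TLX3 gene, a homeobox oncogene.

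Each library held between 19967934 and 20082524 counts. Levels are given in CPM, counts scaled to a common library size, always replicate 1 before replicate 2. A fold change is log2 of ACBI-1 over DMSO with its standard error (SE), and a gene was called when its edgeR adjusted p was under 5%. T-lineage markers were present, with CD3E between 1429 and 1674 CPM, while TRBC1 had no read and PTCRA at most 1. The summed T-lineage markers lay at 6285 to 6297 CPM in DMSO and 6333 to 6349 CPM with ACBI-1. By edgeR 2 of their 12 tested members rose (CD3G and CD2), and DESeq2 called CD3G alone. CD79A, a gene listed as a B-lineage marker, was also high (1565 to 1774 CPM), while MS4A1 had no read. Myeloid and erythroid markers summed to at most 0.401 and 0.202 CPM. Natural killer markers, nearly all NKG7, summed to 26.5 to 27.5 CPM in DMSO and 20.7 to 22.95 CPM with ACBI-1, and epithelial and fibroblast markers, nearly all PDGFRB, to 47.9 to 58.3 and 34.3 to 34.9 CPM. NKG7 and PDGFRB fell by edgeR, and the part of such cells in other results was not tested. Reads of mitochondrially encoded genes made up 17.43% and 13.31% of the counts in the ACBI-1 libraries and 15.22% and 15.09% in DMSO. The ACBI-1 replicates were the more unlike pair, with a mean chi-square per gene of 17.2 against 3.19 for the DMSO pair. DMSO replicate 2 held traces of MOLT-4 RNA: 52 genes that mark MOLT-4 summed to 955 reads there, 0.638% of their MOLT-4 level. They summed to 54 to 70 reads in the other 3 libraries, but low counts in those 3 were a condition for choosing the markers. Whether the replicates are independent cultures is not said in the labels, and the p-values below reflect no more than the scatter among these libraries, part of which may be technical. In bulk RNA, fewer cells with a transcript and less transcript per cell cannot be told apart.

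Within 3 h, 1378 of the 14019 genes were called, which is 9.83% of those tested. Of these, 530 rose (3.78%) and 848 fell (6.05%). Most changes were small: 1051 were under 1.5-fold, 228 lay between 1.5-fold and 2-fold, and 99 reached 2-fold, with 40 higher (0.285%) and 59 lower (0.421%). The median size of a called change was 0.40 on the log2 scale. Called genes made up 1.79% of those under 1 CPM, where the median SE was 0.44, and 13.4% of those between 20 and 100 CPM, where it was 0.08. A count of non-overlapping groups shows how 2 libraries a group behave, since both ACBI-1 libraries lay above both DMSO libraries for 24.5% of all tested genes and below them for 24.8%.

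The number of calls depended on the replicates. Leaving out ACBI-1 replicate 1 removed nearly all edgeR calls, and leaving out ACBI-1 replicate 2 removed most. Leaving out either DMSO library removed many. All 1378 called genes kept their direction without ACBI-1 replicate 1, and 1376 did without ACBI-1 replicate 2. The groups overlapped in only 4 called genes, so direction could hardly change and its being kept shows little. DESeq2 called 603, and 598 of these were also called by edgeR. The authors' deposited table lists the same number at an adjusted p under 0.05, with 197 positive and 406 negative, and 598 of them were called here with the same sign. Of all 99 genes that edgeR called at 2-fold or more, DESeq2 called 41 and gave no adjusted p for 38. Of the 99, 73 had a mean under 5 CPM. Of the 26 with a mean of at least 5 CPM, DESeq2 called 25.

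**Figure D1:**
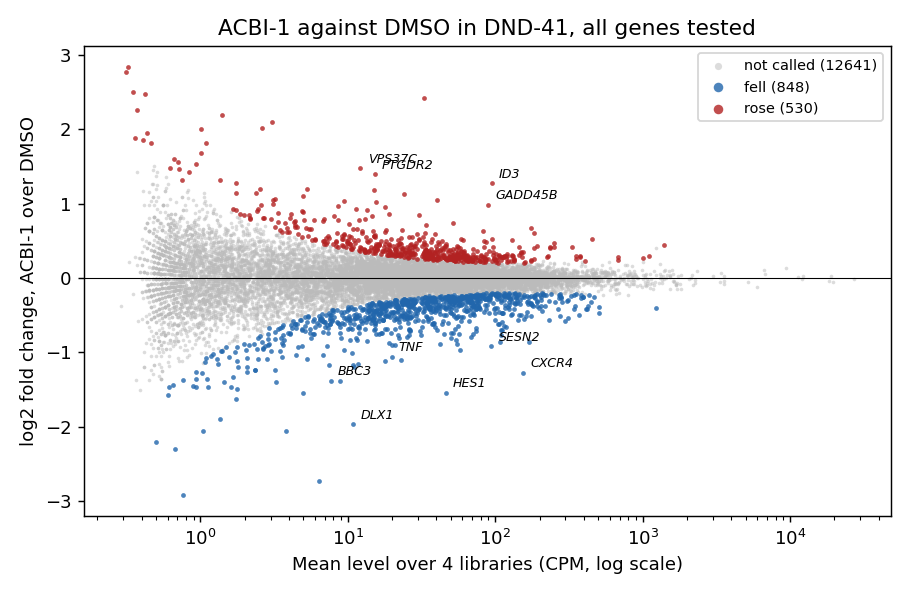
The log2 fold change of every tested gene (vertical axis) is plotted against its mean level over the 4 DND-41 libraries in CPM (horizontal log axis), with genes that rose in red, genes that fell in blue and others in grey. The 848 falls outnumber the 530 rises, and changes past 2-fold are mostly in genes of low level.

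None of the degrader's own targets was called at the transcript level, and protein was not measured. SMARCA4 stood at 457 and 464 CPM in DMSO and at 457 and 504 CPM with ACBI-1. SMARCA2 had 56.6 and 64.7 CPM in DMSO and 53.9 and 56.6 CPM with ACBI-1, and PBRM1 lay between 135 and 143 CPM in all 4 libraries. None of the 8 genes for the targets and the VHL ligase was called by edgeR or DESeq2, and none had an unadjusted edgeR p under 0.05. Among 25 other tested SWI/SNF subunits, 2 rose and 1 fell. GLTSCR1L, also named BICRAL and specific to non-canonical BAF, went from 32.9 and 30.0 CPM to 47.1 and 47.4 CPM (0.59 ± 0.08, edgeR adjusted p = 4.0e-06). ARID1A, the largest subunit of canonical BAF, went from 620 and 626 CPM to 748 and 722 CPM (0.24 ± 0.08), a call that was lost when libraries were scaled by total counts. SMARCD3, at 5.77 and 7.07 CPM, was at 3.48 and 4.33 CPM with ACBI-1 (-0.71 ± 0.18) and was not called by DESeq2.

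The promoters of a few genes on which the account below turns are printed first, as the 250 bases before the transcription start in RefSeq (GRCh38.p14), read 5′ to 3′ along the gene's strand. Capitals mark one motif in each window, and the motif shown was chosen after 17 short motifs had been searched on both strands. HES1 is shown for TGGGAA, the core recognised by RBPJ, the DNA-binding partner of Notch; its 2 copies start 84 and 70 bases before the start site. The HES1 window is chr3:194135898-194136147, plus strand.

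HES1: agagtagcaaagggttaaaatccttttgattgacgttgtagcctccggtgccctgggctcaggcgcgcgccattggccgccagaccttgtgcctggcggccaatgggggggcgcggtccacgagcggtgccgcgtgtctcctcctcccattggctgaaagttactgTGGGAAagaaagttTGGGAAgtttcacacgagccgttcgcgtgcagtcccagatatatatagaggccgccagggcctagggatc

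CXCR4, which fell, is shown for GCGCATGCG, the core bound by NRF1, which occurs as 2 overlapping copies on opposite strands that start 59 and 58 bases before the start site (chr2:136118150-136118399, minus strand). Among the genes that fell, 4 of 631 windows held this motif.

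CXCR4: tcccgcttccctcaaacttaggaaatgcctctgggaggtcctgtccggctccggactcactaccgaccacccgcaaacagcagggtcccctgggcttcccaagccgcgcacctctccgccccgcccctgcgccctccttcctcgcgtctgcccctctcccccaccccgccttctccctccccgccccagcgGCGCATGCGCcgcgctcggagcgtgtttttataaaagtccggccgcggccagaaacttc

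The genes of sterol synthesis MVD, MVK, DHCR7 and MSMO1, which rose, are shown for the CCAAT box, the site of the factor NF-Y (CCAAT, or ATTGG on the other strand). The windows are chr16:88663092-88663341 (minus strand), chr12:109573544-109573793 (plus), chr11:71448394-71448643 (minus) and chr4:165327419-165327668 (plus), and they hold 3, 5, 2 and 4 copies.

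MVD: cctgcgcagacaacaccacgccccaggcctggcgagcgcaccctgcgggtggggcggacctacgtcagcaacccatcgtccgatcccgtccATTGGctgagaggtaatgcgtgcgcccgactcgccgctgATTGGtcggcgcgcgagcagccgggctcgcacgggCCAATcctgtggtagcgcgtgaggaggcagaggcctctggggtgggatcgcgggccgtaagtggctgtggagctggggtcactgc

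MVK: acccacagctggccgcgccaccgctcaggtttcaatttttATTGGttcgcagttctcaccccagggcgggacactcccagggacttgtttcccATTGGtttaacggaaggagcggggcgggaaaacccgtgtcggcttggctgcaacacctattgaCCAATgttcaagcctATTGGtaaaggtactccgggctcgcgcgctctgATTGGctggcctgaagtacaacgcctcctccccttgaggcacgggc

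DHCR7: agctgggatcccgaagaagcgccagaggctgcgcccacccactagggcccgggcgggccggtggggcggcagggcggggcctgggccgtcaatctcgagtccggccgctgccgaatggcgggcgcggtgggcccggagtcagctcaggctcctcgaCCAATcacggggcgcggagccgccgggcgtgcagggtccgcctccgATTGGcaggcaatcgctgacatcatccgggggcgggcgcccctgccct

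MSMO1: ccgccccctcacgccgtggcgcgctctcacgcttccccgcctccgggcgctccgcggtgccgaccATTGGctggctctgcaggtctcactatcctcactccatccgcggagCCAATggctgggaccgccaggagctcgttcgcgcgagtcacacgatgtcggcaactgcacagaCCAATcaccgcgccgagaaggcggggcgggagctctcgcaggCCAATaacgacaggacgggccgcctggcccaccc

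The first question was which single genes moved most. Among rises with a mean of at least 5 CPM, VPS37C, part of the membrane-sorting complex ESCRT-I, went from 6.52 and 6.37 CPM in DMSO to 18.8 and 17.1 CPM, a 2.78-fold change. PTGDR2, the receptor for prostaglandin D2 named CRTH2, went from 8.68 and 8.13 to 19.9 and 24.3 CPM. ID3, an inhibitor of E-protein transcription factors, went from 57.8 and 53.6 to 123 and 145 CPM. Leaving out any 1 library gave log2 fold changes of 1.41 to 1.54 for VPS37C, 1.24 to 1.53 for PTGDR2 and 1.15 to 1.39 for ID3. The genes were picked for large changes with groups that did not overlap, so these ranges show little. They do not say whether a call was kept, and nearly all edgeR calls were lost without ACBI-1 replicate 1. GADD45B, a stress-induced regulator of p38 and JNK signalling, rose from 57.6 and 63.1 to 111 and 128 CPM (0.99 ± 0.08, edgeR adjusted p = 3.4e-11). REL, the NF-kB subunit c-Rel, rose from 11.98 and 12.3 to 25.9 and 21.2 CPM. CCL1, a T-cell chemokine, rose from 8.02 and 7.62 to 15.2 and 14.6 CPM, and C2CD4B from 25.0 and 28.0 to 54.4 and 55.0 CPM. CPEB4, a binder of messenger RNA tails, started at 3.21 CPM in both DMSO libraries and reached 8.02 and 6.70 CPM. The zinc finger genes ZNF341 (1.13 ± 0.10), ZFP69B (1.03 ± 0.13), ZNF524 (0.96 ± 0.16) and ZNF653 (0.91 ± 0.12) and the methyltransferase gene N6AMT1 (1.03 ± 0.11) also rose.

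Among falls, DLX1, a homeobox factor, had 17.5 and 17.2 CPM in DMSO and 4.08 and 4.78 CPM with ACBI-1, a log2 fold change of -1.96 ± 0.13. HES1, a repressor switched on by Notch, had 70.5 and 67.5 CPM in DMSO and 21.5 and 25.8 CPM with ACBI-1. CXCR4, the receptor for the chemokine CXCL12, had 218 and 219 CPM in DMSO and 88.8 and 92.0 CPM with ACBI-1, so its 4 libraries formed 2 tight pairs. TAGAP, a GTPase-activating protein of activated T cells, fell from 13.3 and 12.4 to 4.44 and 5.37 CPM. BBC3, which encodes the cell-death protein PUMA, fell from 11.9 and 10.2 to 3.63 and 4.88 CPM. SERPINH1, a collagen chaperone, fell from 23.6 and 25.1 to 11.1 and 11.4 CPM, and IL16, a secreted T-cell factor, from 29.1 and 33.1 to 13.7 and 15.4 CPM. TNF fell from 26.2 and 27.5 to 13.5 and 12.4 CPM. MICA, a stress ligand for natural killer cells, fell from 8.57 and 9.68 to 5.09 and 3.84 CPM, RASSF2 from 14.4 and 15.8 to 5.35 and 8.08 CPM, and C16orf54 from 15.6 and 15.3 to 6.91 and 6.60 CPM. RRN3P1, a pseudogene that may share reads with RRN3, fell by 1.09 ± 0.17.

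Of the genes picked by size, 2 falls moved with the MOLT-4 traces. STAT5A, at 707 CPM in MOLT-4, had 7.77 and 12.8 CPM in the DMSO libraries and 4.29 and 4.83 CPM with ACBI-1. Its log2 fold change was -1.17 ± 0.18, and -0.83 (edgeR adjusted p = 3.7e-04) when MOLT-4 reads were subtracted from DMSO replicate 2. MTND1P23, a mitochondrial pseudogene, had 1.96 and 20.3 CPM in DMSO and 1.82 and 1.53 CPM with ACBI-1. Its fitted change of -2.73 became 0.05 after subtraction, with the call lost. It is itself a marker gene and held 404 of the 955 marker reads that set the amount subtracted, 0.638% of the MOLT-4 level. The median over the 52 markers was 0.59%. A subtraction set without MTND1P23 was not run. Subtraction left 1360 of the 1378 calls in place.

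**Figure D2:**
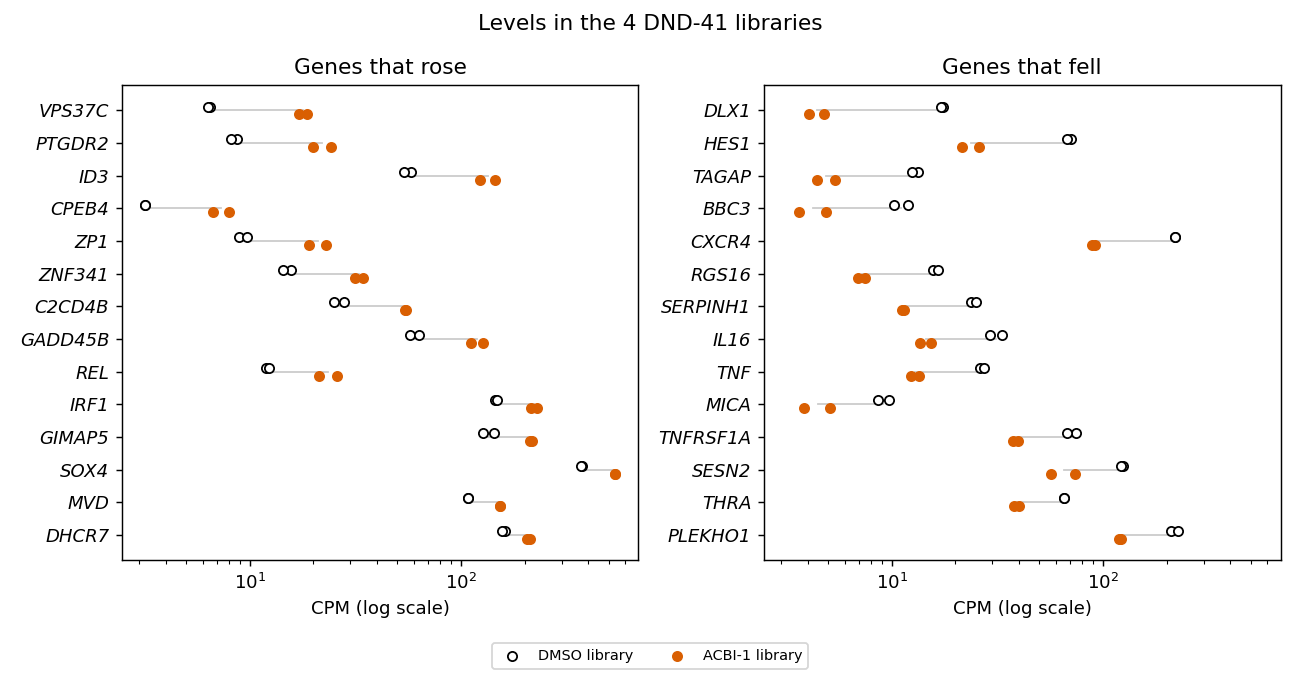
Levels in CPM (horizontal log axis) of 14 genes that rose and 14 that fell are shown for each of the 4 DND-41 libraries, with open circles for DMSO, filled circles for ACBI-1 and a grey line between the group means. The libraries of CXCR4 stand at 218 and 219 against 88.8 and 92.0 CPM. Groups that do not overlap were a condition for choosing the genes of largest change, so their separation is not a finding.

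At high levels, with a mean of at least 100 CPM, changes were smaller and replicates tighter. GIMAP5, a GTPase of lymphocyte survival, rose from 127 and 143 to 213 and 218 CPM (0.68 ± 0.07). IRF1, an interferon-response factor, rose from 144 and 149 to 216 and 229 CPM. SOX4, a factor of T-cell progenitors, rose from 376 and 372 to 535 and 536 CPM. CCDC86, NRROS and MYO7B rose by 0.47 ± 0.07, 0.42 ± 0.07 and 0.44 ± 0.09. Beside CXCR4, the falls were led by C20orf112 (145 and 134 to 71.7 and 82.0 CPM) and PLEKHO1 (210 and 226 to 120 and 122 CPM). GRAMD1A, a sterol transporter between membranes, fell from 137 and 139 to 75.0 and 87.7 CPM. ARHGAP23 (-0.70 ± 0.07), C15orf39 (-0.70 ± 0.07), MOB3A (-0.65 ± 0.07) and C11orf84 (-0.65 ± 0.07) also fell.

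Gene groups were then read by their roles, each against the background of 3.78% rises and 6.05% falls. That background includes non-coding genes and genes of low level, which were called less often. Of the 11195 tested protein-coding genes 457 rose and 793 fell, so 11.2% were called, against 9.83% of all tested genes. Transcription factors come first. Of 30 tested homeobox genes 2 rose and 6 fell, with a list median of -0.05 against 0.00 for all tested genes. TLX3, the oncogene of this line, fell from 357 and 377 to 233 and 274 CPM (-0.54 ± 0.07), PITX1 from 54.0 and 61.2 to 34.3 and 41.2 CPM, and HHEX and DLX2 by 0.96 ± 0.24 and 1.46 ± 0.47 on the log2 scale. DESeq2 called DLX1, PITX1 and TLX3 among the homeobox falls. ZHX1 (0.33 ± 0.07) and POU2F1 (0.33 ± 0.08) rose, and DESeq2 called ZHX1 alone.

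Helix-loop-helix factors and ID proteins had 2 rises and 9 falls in 35 tested members, and DESeq2 called 2 and 7. The ID proteins bind E proteins and keep them off DNA. ID3 rose while its relative ID1 fell from 4.41 and 5.27 to 2.12 and 2.51 CPM (-1.06 ± 0.21), and ID2 stayed between 19.8 and 22.4 CPM in the 4 libraries. MYC, a transcription factor of cell growth driven by Notch in these leukaemias, had 988 and 1002 CPM in DMSO and 1103 and 1341 CPM with ACBI-1 (0.30 ± 0.09, edgeR adjusted p = 0.027), so its ACBI-1 libraries differed from each other more than its DMSO libraries did. MXD1 and MXD3, which compete with MYC for the partner MAX, fell by 0.73 ± 0.11 and 0.55 ± 0.08, and MAX itself was at 0.03 ± 0.07.

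Nuclear receptors and clock genes had among the higher shares of called members, and the 2 lists share members. Of 25 tested nuclear receptors 3 rose and 7 fell, and of 20 tested clock genes 3 rose and 7 fell. DESeq2 called 1 and 6, and 1 and 3. NR1D1, the clock repressor REV-ERB alpha, rose from 40.0 and 37.6 to 62.8 and 66.5 CPM (0.74 ± 0.08, edgeR adjusted p = 2.3e-08). THRA, a thyroid hormone receptor whose gene overlaps NR1D1 on the opposite strand, fell from 65.4 and 65.3 to 38.0 and 40.0 CPM. Without a stated strand setting, reads in the overlap of these genes cannot be assigned. The 2 moved in opposite directions, and the part of shared reads in this was not tested. The clock repressor PER1 fell from 47.3 and 43.7 to 29.5 and 29.9 CPM, and NR1D2, a relative of NR1D1, fell by 0.53 ± 0.11. ARNTL, which encodes BMAL1, fell by 0.43 ± 0.11 and CRY2 by 0.31 ± 0.09, while PER2 rose by 0.27 ± 0.07. Among the clock genes DESeq2 called NR1D1 alone upward, and PER1 and NR1D2 were among its 3 falls. It called neither PER2 nor ARNTL. NR2F6, a repressor of interleukin genes, fell from 26.1 and 28.7 to 14.1 and 15.4 CPM, and PPARA, ESRRA and RARA fell by 0.52 ± 0.09, 0.51 ± 0.11 and 0.47 ± 0.09. RORA and ESR1, counted among the rises, lay under 1 CPM in every library.

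STAT, IRF and NF-kB factors split evenly, with 5 rises and 5 falls in 28 tested members (DESeq2, 3 and 3). IRF1, REL and TNFAIP3 (0.32 ± 0.07), the brake named A20, rose. NFKBIA, the NF-kB inhibitor that NF-kB itself induces, fell from 69.4 and 73.6 to 47.6 and 51.8 CPM, and NFATC1 fell by 0.45 ± 0.09. Regulators of the T lineage had 5 rises and 8 falls in 38 tested members (DESeq2, 3 and 5), led by SOX4 upward and by ZBTB7A (149 and 151 to 102 and 111 CPM) and GFI1 (75.0 and 70.1 to 48.2 and 59.0 CPM) downward. MYB was at 370 and 384 CPM in DMSO and 431 and 449 CPM with ACBI-1 (0.22 ± 0.07), a call lost under scaling by total counts. Of 16 tested ETS factors 3 fell and 1 rose (DESeq2, 2 and 1): FLI1 fell from 136 and 133 to 85.0 and 93.1 CPM, ELF4 by 0.75 ± 0.08 and ELK3 by 0.43 ± 0.11, and GABPA rose by 0.37 ± 0.08. JUND (177 and 164 to 106 and 125 CPM) and JUN (-0.41 ± 0.09) fell among the 42 tested AP-1, ATF and CREB factors, a list with 6 falls and 1 rise (DESeq2, 4 and 1).

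The Notch pathway, tested without HES1, had 1 rise and 6 falls in 31 tested members (DESeq2, 0 and 3). NOTCH1 was at 924 and 953 CPM in DMSO and 854 and 1019 CPM with ACBI-1, so its groups overlapped. NOTCH3, a Notch target as well as a receptor, was at 510 and 511 CPM in DMSO and 392 and 462 CPM with ACBI-1 (-0.26 ± 0.08), a call lost under scaling by total counts, and NOTCH2 fell by 0.35 ± 0.07. DTX1, a Notch-induced ubiquitin ligase, fell from 1342 and 1458 to 989 and 1126 CPM (-0.40 ± 0.09). LFNG, which adds sugar to Notch, had 2.76 and 2.26 CPM in DMSO and 1.16 and 1.03 CPM with ACBI-1. HES4, another Notch-linked repressor, was at -0.61 ± 0.22 and was not called.

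Zinc finger genes named ZNF, a family rich in repressors that silence transposons, gave 39 rises (8.71% of the 448 tested) and 21 falls, and DESeq2 called 8 and 5. ZNF333 rose from 22.8 and 20.5 to 40.7 and 36.9 CPM and ZNF354A from 24.2 and 22.9 to 36.0 and 34.8 CPM. Of 36 tested ZBTB genes 4 rose and 8 fell (DESeq2, 3 and 4); ZBTB2 fell from 71.3 and 70.8 to 39.6 and 44.97 CPM and ZBTB42 was at -1.004 ± 0.13. 

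Receptors and signalling genes were the next group. The TNF superfamily had 11 falls and 1 rise in 30 tested members, a list median of -0.28 (DESeq2, 6 and 0). Both receptors for TNF fell together with TNF: TNFRSF1A went from 74.4 and 67.6 to 37.3 and 39.7 CPM (-0.88 ± 0.08, edgeR adjusted p = 7.6e-10) and TNFRSF1B from 15.4 and 14.1 to 8.02 and 8.57 CPM. TNFSF10, the death ligand TRAIL, fell by 0.32 ± 0.07, and 3 of its receptors fell: TNFRSF10B from 9.28 and 9.63 to 5.35 and 4.73 CPM, and TNFRSF10A and TNFRSF10D from levels between 1.86 and 2.46 CPM. FAS fell from 11.7 and 10.5 to 7.11 and 8.18 CPM. TNFSF4, the ligand of OX40, was the 1 member that rose (0.57 ± 0.15). Of the 9 tested chemokines and chemokine receptors, CCL1 rose and CXCR4 and CCR7 (-0.41 ± 0.12) fell. DESeq2 called 1 rise and 1 fall, without CCR7.

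Among other G-protein-coupled receptors 3 rose and 5 fell in 32 tested members (DESeq2, 2 and 3). PTGDR2 rose while PTGER2, a receptor for prostaglandin E2, fell from 23.02 and 26.2 to 12.6 and 14.4 CPM. S1PR4, a sphingosine-1-phosphate receptor of lymphocytes, fell from 63.4 and 75.9 to 39.4 and 39.1 CPM, and LPAR6, a receptor for lysophosphatidic acid, from 35.9 and 30.1 to 21.3 and 19.1 CPM. The RGS proteins, which switch such receptors off by speeding GTP hydrolysis, had 5 falls and no rise in 14 tested members (DESeq2, 4 and 0). RGS16 fell from 15.7 and 16.6 to 7.51 and 6.94 CPM, RGS3 from 24.6 and 26.6 to 14.6 and 17.3 CPM, and RGS19 and RGS1 by 0.40 ± 0.08 and 0.37 ± 0.08.

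Phosphatases and feedback inhibitors of the ERK kinases had 7 falls and 1 rise in 20 tested members, with a median of -0.35 (DESeq2, 6 and 1). DUSP6, a phosphatase that turns ERK off and is induced by it, fell from 426 and 441 to 294 and 317 CPM. IER3, an early gene of ERK signalling, went from 6.57 and 5.72 to 1.41 and 1.53 CPM (-2.06 ± 0.22), and DUSP2, IER2 and SPRED2 fell by 0.68 ± 0.12, 0.60 ± 0.11 and 0.36 ± 0.07. RASSF5 rose by 0.34 ± 0.07. The regulators of PI3K, AKT and mTOR had 9 falls and 1 rise in 47 tested members (DESeq2, 8 and 0), and the median was 0.00. SESN2, an inhibitor of mTORC1 during amino acid shortage, fell from 124 and 122 to 57.0 and 73.6 CPM (-0.92 ± 0.08). The kinase subunits PIK3CD and PIK3CG fell by 0.33 ± 0.07 and 0.37 ± 0.08. In the JAK and SOCS list SOCS2, a feedback inhibitor induced by STAT5, fell from 172 and 168 to 120 and 122 CPM.

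T-cell receptor signalling had 3 rises and 5 falls in 55 tested members with edgeR, 2 and 2 with DESeq2, and 3 and 2 without DMSO replicate 1. The costimulatory receptors ICOS (128 and 119 to 180 and 151 CPM) and CD28 (13.8 and 13.3 to 18.4 and 18.8 CPM) rose with the CD3 chain CD3G (296 and 274 to 402 and 361 CPM). PTPRCAP, a partner of the phosphatase CD45, fell from 311 and 334 to 218 and 234 CPM. Of the 7 tested GIMAP genes, which lie together on chromosome 7, 3 rose: GIMAP5, GIMAP1 (34.2 and 34.2 to 47.0 and 48.6 CPM) and GIMAP7 (0.28 ± 0.08). DESeq2 called 2 rises, without GIMAP7. GIMAP6 (-0.02 ± 0.07) and GIMAP2 (0.06 ± 0.08) were near 0. GIMAP1 and GIMAP5 share a read-through transcript, so reads could be split between them. 

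Genes of cell death and arrest changed in both directions. Of 16 tested BCL2 family genes 2 rose and 4 fell, with the same counts by DESeq2. The death promoters were divided: BBC3 and PMAIP1, which encodes NOXA (47.1 and 48.3 to 35.5 and 34.5 CPM), fell, while BCL2L11, which encodes BIM (83.1 and 72.5 to 112 and 111 CPM), and BMF (13.5 and 14.9 to 18.5 and 25.1 CPM) rose. The survival genes MCL1 (96.4 and 83.4 to 68.0 and 66.4 CPM) and BCL2 (123 and 121 to 97.0 and 101 CPM) fell. The inhibitors of cyclin-dependent kinases CDKN1A (19.96 and 17.5 to 12.5 and 10.6 CPM) and CDKN1B (61.9 and 62.7 to 44.8 and 47.4 CPM) also fell, as did the cell-cycle factor E2F8 (89.6 and 83.8 to 50.7 and 49.4 CPM). The p53-linked list, which shares SESN2, TNFRSF10B, CDKN1A and FAS with those above, had 5 falls and 3 rises in 30 tested members (DESeq2, 3 and 2). BTG1, which slows proliferation, rose from 66.3 and 63.0 to 99.8 and 101 CPM, and ZFP36, which destabilises messages such as that of TNF, fell from 33.4 and 31.8 to 18.9 and 19.3 CPM.

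Metabolic genes were read by pathway. Sterol synthesis and uptake had 11 rises and no fall in 29 tested members (DESeq2, 10 and 0), with a median of 0.19. Both ACBI-1 libraries were above both DMSO libraries in 17 of the 29, and in 24.5% of all tested genes. The called genes run along the pathway from its start to its end. HMGCS1 (172 and 162 to 211 and 189 CPM) acts at the start, before mevalonate. MVK (49.2 and 50.6 to 70.6 and 71.0 CPM), MVD (108 and 108 to 154 and 153 CPM), IDI1 (0.35 ± 0.07) and FDPS (0.28 ± 0.07) turn mevalonate into isoprenoids. SQLE (0.29 ± 0.07), MSMO1 (0.41 ± 0.08), HSD17B7 (0.45 ± 0.11), SC5D (0.46 ± 0.10) and DHCR7 (161 and 156 to 213 and 206 CPM) build and finish the sterol ring. SREBF2, the master regulator of these enzymes, was at 594 and 604 CPM in DMSO and 621 and 620 CPM with ACBI-1 and was not called (0.05 ± 0.07). Fatty acid synthesis, which the related factor SREBF1 controls, had 6 falls and no rise in 23 tested members (DESeq2, 4 and 0), among them FADS1 (131 and 134 to 108 and 92.3 CPM) and ELOVL6 (61.7 and 60.4 to 51.03 and 46.7 CPM).

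Glycolysis and hypoxia genes had 11 falls and 1 rise in 39 tested members, of which DESeq2 called 4 and 0. VEGFA, the vascular growth factor, fell from 87.3 and 90.5 to 62.6 and 72.8 CPM, the glycolytic enzyme gene ENO2 from 86.5 and 86.3 to 67.0 and 63.9 CPM, and EGLN3, an oxygen sensor of HIF, from 18.8 and 19.0 to 9.68 and 13.8 CPM. HIF1A was at 0.02 ± 0.07. Genes of amino acid stress and protein folding had 8 falls and no rise in 40 tested members (DESeq2, 6 and 0), with the amino acid carriers SLC38A2 (201 and 177 to 137 and 128 CPM), SLC1A4 (394 and 394 to 284 and 306 CPM) and SLC1A5 (495 and 506 to 373 and 427 CPM). All 194 tested solute carriers together gave 10 rises and 26 falls (DESeq2, 2 and 12).

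Ribosome biogenesis and RNA polymerase I had 10 rises and no fall in 65 tested members, and 51 had a log2 fold change above 0 (list median 0.10). DESeq2 called 2 rises, and no member was called without ACBI-1 replicate 1, ACBI-1 replicate 2 or DMSO replicate 1. With the replicate number as a block there were 22 rises and 3 falls. POP1, a subunit of RNase P, rose from 19.2 and 21.1 to 26.3 and 26.8 CPM and was not called by DESeq2. UBTF, the RNA polymerase I factor, rose from 325 and 323 to 384 and 391 CPM. Of 83 tested cytosolic ribosomal protein genes and 33 mitochondrially encoded genes none was called by edgeR or DESeq2.

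Chromatin genes outside SWI/SNF came next. Polycomb genes, whose complexes repress developmental genes and oppose SWI/SNF, had 8 falls and 1 rise in 35 tested members (DESeq2, 4 and 1). CBX2 fell from 130 and 129 to 86.8 and 100.4 CPM, and MTF2 rose by 0.27 ± 0.07. Of 34 tested other remodellers 2 fell, both in the NuRD complex: CHD4 (362 and 357 to 232 and 248 CPM) and GATAD2A (309 and 301 to 215 and 240 CPM). Among deacetylases HDAC7 fell from 86.1 and 81.8 to 54.1 and 64.9 CPM, and HDAC4 rose by 0.28 ± 0.07.

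Interferon-stimulated genes gave 4 rises and 7 falls in 55 tested members with edgeR, and 4 and 3 with DESeq2. Leaving out either DMSO library gave 4 and 2, so neither direction prevailed across settings. RSAD2, the antiviral protein viperin, rose from 7.82 and 9.73 to 15.8 and 14.4 CPM, and DDX60, SAMD9L and TRIM21 rose by 0.57 ± 0.11, 0.46 ± 0.08 and 0.48 ± 0.08. The neighbouring guanylate-binding genes GBP5 (126 and 130 to 76.3 and 91.1 CPM) and GBP4 (161 and 141 to 109 and 108 CPM) fell.

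**Figure D3:**
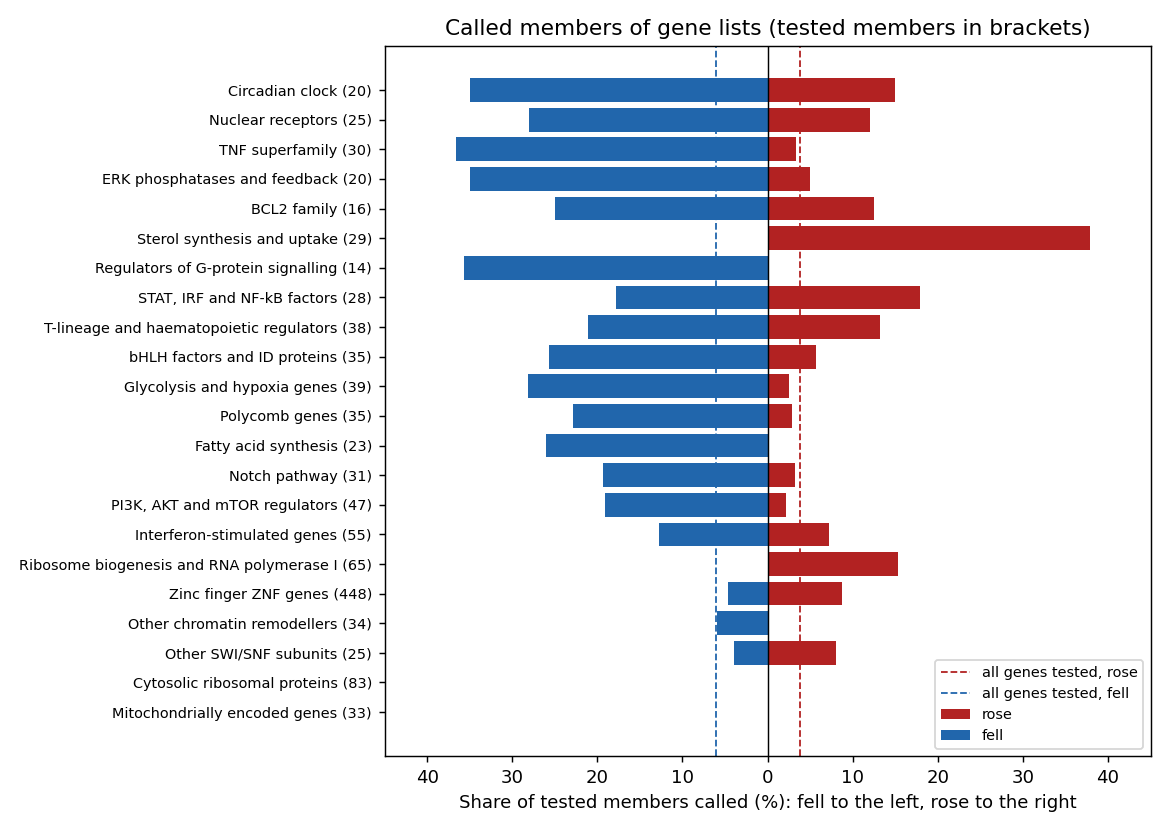
For 22 gene lists the share of tested members that rose (red bars, to the right) and fell (blue bars, to the left) is given in percent, with the number tested in brackets and dashed lines at the shares for all tested genes (3.78% rose, 6.05% fell). Sterol and ribosome biogenesis genes have rises and no falls, while regulators of G-protein signalling and fatty acid genes have falls and no rises. The lists were drawn up with earlier results of these data known, share some members and were not tested as sets.

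Long non-coding genes, 1581 of those tested, had 40 rises and 30 falls (4.43% called), at a median level of 1.54 CPM against 29.8 CPM for protein-coding genes. RP11-286H15.1 rose from 13.0 and 14.2 to 23.8 and 25.5 CPM and TMCC1-AS1 from 3.61 and 3.16 to 6.66 and 6.01 CPM. OSER1-AS1 (1.27 ± 0.30) and RP11-480D4.6 (0.90 ± 0.25) were called upward by edgeR and not by DESeq2. The largest falls by the same rule were CTD-2527I21.14 (-1.36 ± 0.36), RP11-402D21.2 (-1.27 ± 0.37), RP11-168O16.1 (-1.26 ± 0.27), RP11-43F13.3 (-1.24 ± 0.28) and RP11-326C3.7 (-1.23 ± 0.25), each under 4 CPM. Of these 5, DESeq2 called RP11-326C3.7 alone. RP11-168O16.1 adjoins KIF21B, which had a mean of 430 CPM and fell by 0.38 ± 0.08, and without a stated strand setting reads of the 2 may not be separable.

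Calls were also read by gene structure. Among protein-coding genes with 3 or fewer exons 9.19% fell and 4.37% rose, against 6.63% and 4.02% of those with more exons. Of the 367 with 1 exon 11.7% fell. These shares describe the tested genes, and no test of the difference was run.

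Called genes were also read in their order along the chromosomes. Of 521 rises 84 (16.1%) had a tested neighbour that also rose, and of 834 falls 171 (20.5%) had a neighbour that fell. Measured the same way over all 13585 genes placed in order, 7.45% had a neighbour that rose and 11.8% a neighbour that fell, and no test of the difference was run. Runs of 3 or more neighbours called by edgeR in 1 direction numbered 8 upward and 13 downward, and DESeq2 called every gene in 1 and 2 of these. On chromosome 2 DLX1, DLX2 and ITGA6 fell in a row, and CD28, ICOS and INO80D rose. On chromosome 8 RHOBTB2 and the TRAIL receptors TNFRSF10B, TNFRSF10D and TNFRSF10A formed a run of 4 falls, of which DESeq2 called TNFRSF10B alone. In the run of DLX1, DESeq2 called DLX1 alone, and DLX2 had a mean of 0.614 CPM. PHLPP1, BCL2 and KDSR fell together on chromosome 18, and LPAR6, RCBTB2 and CYSLTR2 on chromosome 13. Some neighbours overlap or are near copies of each other, and their reads may be shared.

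A run on chromosome 11 held PTGDR2 and ZP1, both among the largest rises, next to CCDC86 (206 and 212 to 286 and 293 CPM). ZP1, an egg-coat glycoprotein gene, rose from 8.88 and 9.73 to 19.2 and 22.9 CPM. VPS37C stands a few genes away, past PRPF19 (0.09 ± 0.07), TMEM109 (0.06 ± 0.07), CD6 (-0.62 ± 0.33) and CD5 (-0.51 ± 0.31), none of which was called. In MOLT-4 VPS37C was at 0.84 ± 0.10, CCDC86 at 0.02 ± 0.07, PTGDR2 at -0.12 ± 0.17 and ZP1 at -0.60 ± 0.33. The rises of PTGDR2, ZP1 and CCDC86 were called as larger in DND-41 (edgeR adjusted p = 1.3e-04, 0.01 and 0.019), and that of VPS37C was not (adjusted p = 0.06).

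**Figure D4:**
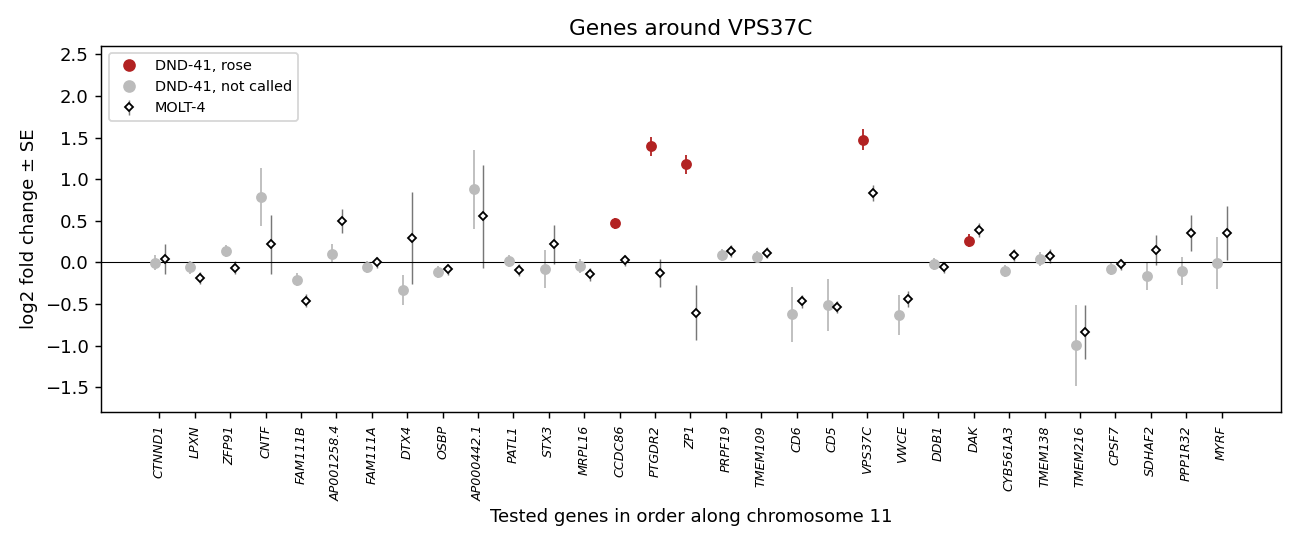
Log2 fold changes ± SE (vertical axis) of 31 tested genes around VPS37C are shown in their order along chromosome 11, with filled circles for DND-41 (red, rose; grey, not called) and open diamonds for MOLT-4. CCDC86, PTGDR2 and ZP1 lie side by side and above 0 in DND-41, with VPS37C apart from them at 1.47, and at 0.84 in MOLT-4.

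Promoter windows were found for 9274 tested protein-coding genes, of which 389 rose and 631 fell. Median GC content was 64.8% over all of these windows, 63.2% in rises and 69.2% in falls. The NRF1 core GCGCATGCG was in 3.53% of all windows, 5.66% of rises and 0.634% of falls. The ETS core CCGGAAG was in 17.2%, 14.4% and 9.51%, and the GC box GGGCGG in 67.5%, 62.7% and 74.8%. The CCAAT box was in 35.7% of all windows and about equally in rises (34.2%) and falls (34.1%). It was in 15 of 22 tested sterol genes with a window and in 8 of the 9 that rose. TCACNCCAC, letters like the sterol response element of SREBP, was in 0.863% of all windows and in 0 of those 9, which says only that these letters are not in these windows. TGGGAA, marked above in HES1, was in 19.8% of all windows, 20.3% of rises and 14.6% of falls. Each motif was counted on both strands, matches may overlap, and a match is not a site shown to be bound.

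The last comparison asked where DND-41 differed from MOLT-4. The test of the difference, on all 8 libraries, called 100 of 15604 genes (0.641%), 69 with the higher fold change in DND-41 (0.442%) and 31 with the lower (0.199%). Of the 528 DND-41 rises in both fits 449 (85.0%) had the same sign in MOLT-4 and 26 were called as different. Of the 848 falls 782 (92.2%) had the same sign and 22 were called as different. The same-sign share over all genes tested in both lines was not counted, so these shares have no background beside them. HES1 (-1.72 ± 0.09 in MOLT-4), CXCR4 (-1.02 ± 0.07), TAGAP (-1.48 ± 0.17) and PLEKHO1 (-1.01 ± 0.07) were among the large falls whose difference was not called.

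Rises called as larger in DND-41 included ID3 (0.22 ± 0.10 in MOLT-4, edgeR adjusted p of the difference 8.1e-05), REL (-0.00 ± 0.09, adjusted p = 8.9e-04), BTG1 (-0.01 in MOLT-4), GIMAP5 (0.04 ± 0.07) and NRROS (-0.23 ± 0.06). GADD45B, at 6.17 CPM in MOLT-4 DMSO, was at 0.27 ± 0.15 there (adjusted p = 0.049). Falls called as deeper in DND-41 included SESN2 (-0.33 in MOLT-4, adjusted p = 0.018), FAM46C (0.38 ± 0.12) and HDAC7 (-0.06 in MOLT-4, adjusted p = 0.026). Other falls were shallower in DND-41: DTX1 stood at -1.32 and BHLHE40, a clock and hypoxia gene, at -1.28 in MOLT-4, against -0.40 and -0.50 in DND-41. MSMO1 rose by 0.98 in MOLT-4 and by 0.41 in DND-41 (adjusted p = 0.0087), and it was the 1 sterol gene of the 11 whose difference was called. STAT5A was called lower in DND-41, and the difference was -1.66 as counted and -1.31 with MOLT-4 reads subtracted.

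**Figure D5:**
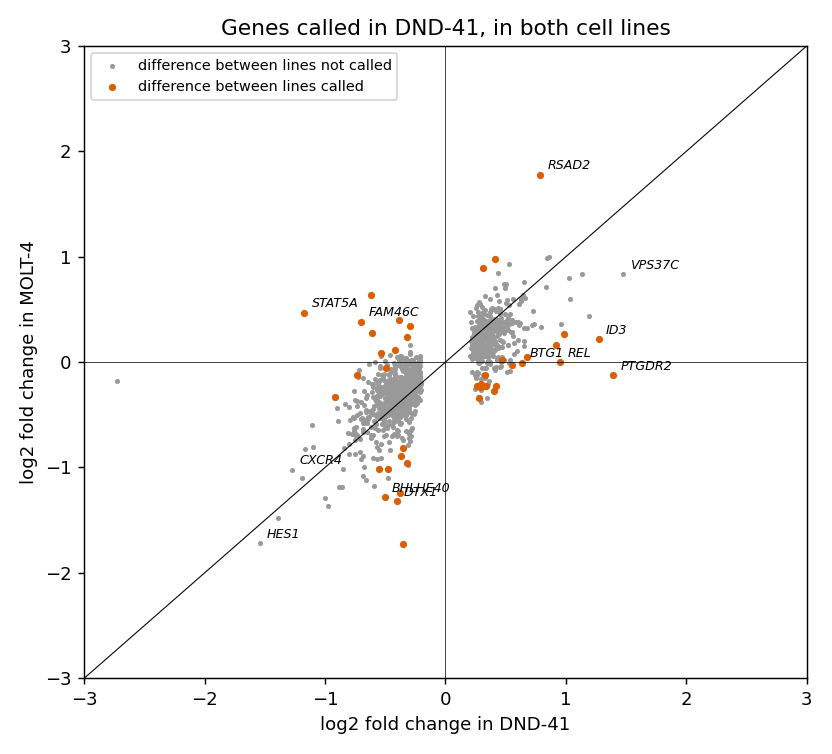
The log2 fold change in DND-41 (horizontal axis) is plotted against that in MOLT-4 (vertical axis) for 1106 genes called in DND-41 with at least 5 CPM in both lines, and the diagonal marks equal change. Of these, 1024 (92.6%) have the same sign in both lines, a share not counted over all tested genes. The 42 genes called for the difference are orange.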

How the data were processed

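RNA sequencing of 4 DND-41 and 4 MOLT-4 libraries was used, 2 per group, grouped by the sample titles in the labels. The authors deposited raw counts per gene for each line, with no normalization. The submitters' processing notes list hg19, DESeq2 1.12.4, STAR 2.5.2a and featureCounts, without role or order. Which annotation was counted, and with which strand setting, is not given in the sources used here. The authors also deposited a table of their own comparison for DND-41, with a mean normalized signal, log2 fold changes and their standard errors, a Wald statistic (a score) and p-values with adjusted p-values, per the file headers. At the depth of these libraries a gene at 1 CPM had about 20 reads, and counting error is large below that. The labels name no spike-in, and values are relative to each library.

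Counts were tested with the quasi-likelihood F-test of edgeR 4.0.16 (limma 3.58.1, R 4.3.3) after TMM scaling and filterByExpr, with 4 DND-41 libraries in the fit and no covariate. The difference between lines was the interaction in a fit of 8 libraries. Adjustment was by Benjamini and Hochberg across every tested gene, and 5% was the threshold. An exact permutation of 2 against 2 libraries cannot reach that threshold and was not used. The scripts were tested on simulated data with the same scatter set for every library. In the data the ACBI-1 pair was more unlike than the DMSO pair. That run therefore does not show how far the calls made here can be relied on.

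Genes were named by rule: the 15 largest rises and falls with groups that did not overlap and a mean of at least 5 CPM, the 8 largest at 100 CPM, the 5 largest long non-coding ones at 1 CPM, up to 5 of smallest p per list, the 6 largest differences between lines each way, and runs of 3 neighbours. Other named list members were chosen after their values were seen. The members and the 59 lists were chosen with earlier results of these data known. The thresholds for MOLT-4 marker genes (500 counts in each MOLT-4 library, 500 times the other 3 DND-41 libraries), the exon split and the stretch of chromosome 11 were set after seeing the data. Some genes that the rules chose or the lists hold are not reported here, and counts include them.

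Gene types, exons and order came from GENCODE 29 (97.1% of tested genes matched), on GRCh38, so no gene coordinates are given. Promoter windows came from RefSeq (GRCh38.p14), matched by symbol for 83.4% of the tested protein-coding genes. The limit to protein-coding genes, and the motif marked in each window, were settled after a first search. Alternatives were DESeq2 1.42.0, its size factors in edgeR, scaling by total counts, no filter or 1 CPM, a threshold of 1%, a minimum fold of 1.5, a replicate block, all 8 libraries, MOLT-4 subtraction or removal, and leaving out each library.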

Additional observations from a re-analysis of the deposited data

Results flagged for a closer look

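For 11 genes the ACBI-1 response differed between DND-41 and MOLT-4 by the test of the difference itself (edgeR, all 8 libraries), each given as the log2 fold change in DND-41 minus that in MOLT-4. Higher in DND-41 were SEMA7A (1.998), ZP1 (1.76), PTGDR2 (1.501), CD300A (1.35) and KLF10 (1.21). ZP1 and PTGDR2 rose in DND-41, while SEMA7A, a membrane-bound semaphorin, stood at -0.02 ± 0.08 in the first line and -2.03 ± 0.16 in the second. The KLF10 fold changes were -0.32 ± 0.12 and -1.54 ± 0.09, and those of CD300A -0.36 ± 0.10 and -1.72 ± 0.19. Lower in DND-41 were STAT5A (-1.66), FOXB1 (-1.27), FAM46C (-1.10), RSAD2 (-1.01), CD84 (-0.90) and DENND2D (-0.82). RSAD2 rose in both lines, by 0.79 ± 0.12 and 1.78 ± 0.13. FOXB1 and CD84 fell in DND-41 (-0.61 ± 0.13 and -0.61 ± 0.16) and stood at 0.64 ± 0.11 and 0.28 ± 0.07 in MOLT-4. DENND2D was at -0.16 ± 0.07 in DND-41, not called, and 0.64 ± 0.07 in MOLT-4.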

How the results depend on the processing

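The 1378 calls in DND-41 became 603 with DESeq2, 2 with no filter on low counts, 763 at 1%, 35 with a minimum fold of 1.5 and 2230 with the replicate number as a block. Leaving out 1 library gave between 3 and 632. The other settings gave 1312 to 1379. The 100 calls for the difference between lines became 13 with no filter and 302 with the replicate block. Leaving out 1 library gave between 49 and 138, and it gave 58 without DND-41 DMSO replicate 2, 52 and 49 without MOLT-4 ACBI-1 replicate 1 and 2, and 64 without MOLT-4 DMSO replicate 2. Deviations of same-numbered libraries had correlations of 0.0861 (DND-41) and 0.0646 (MOLT-4). These values are small and positive, and they do not decide whether the libraries are paired. The labels give the samples only a shared number, and whether they also share a batch or day was not tested. MTND1P23, a marker gene that helped to set the amount subtracted, reversed to 0.053 when MOLT-4 reads were subtracted. The cause of these shifts was not tested, except that fewer libraries enter when 1 is left out. With total counts 57.7% of calls were falls, against 61.5%, and the median log2 fold change of all tested genes was 0.01 against 0.00. At this depth genes under 1 CPM had a median SE of 0.44.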
